A study of Sus scrofa with 48 samples.

Results

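NF-kappaB signalling through CD40 and TRAF6 was described in pig liver for 8 genes given by name: CD40, TLR4, MYD88, TRAF6, NFKBIA, NFKB1, RELA and TNFAIP3. Their probes were found by gene name, or by an accession that maps to one of these genes, among 60305 probes of a custom porcine Agilent array. In all, 26 probes matched 7 of the 8 genes, and 25 of these were among the 45236 probes tested, which covered 11108 named genes. TNFAIP3 was not analysed here, as no probe matched it. The tested probes numbered 4 for CD40, 4 for TLR4, 3 for MYD88, 2 for TRAF6, 5 for NFKBIA, 3 for NFKB1 and 4 for RELA.

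Livers came from 48 castrated male purebred Large White pigs of 2 lines, divergently selected over 8 generations for residual feed intake (RFI), the part of feed intake that growth and fatness do not account for. Pigs of the low RFI line eat less than predicted and are the more efficient ones, and those of the high RFI line eat more. In each line, 12 pigs were fed a high-fat high-fiber diet (HF) and 12 a low-fat low-fiber diet (LF) from 74 days of age until sampling at 132 days. The 4 groups were therefore the low RFI line on HF, the high RFI line on HF, the low RFI line on LF and the high RFI line on LF, with 1 array per pig. Each line was a single selected population, so effects of selection and of chance differences between populations cannot be told apart. Levels are log2 intensities relative to the median of the array, and they are compared between pigs for 1 probe, never between probes.

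CD40 is a receptor of the TNF receptor superfamily, carried by B cells, macrophages, dendritic cells and some other cells, and bound by the CD40 ligand of activated T cells. TLR4 is the receptor for bacterial lipopolysaccharide, and MYD88 is the adaptor that links it to the kinases below. Both routes reach TRAF6, a ubiquitin ligase whose ubiquitin chains bring together the kinases that mark IkappaB proteins for degradation. NFKBIA encodes IkappaB-alpha, which holds NF-kappaB in the cytoplasm. NFKB1 (p105, processed to p50) and RELA (p65) form the classical NF-kappaB dimer, and NFKBIA is itself switched on by NF-kappaB. TNFAIP3 (A20) is a ubiquitin-editing inhibitor of the same route. In liver, portal blood brings bacterial products to Kupffer cells, the resident macrophages, which are a main site of the TLR4 response.

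The probes were 60 bases long, and the following ones are shown because the results turn on them or because probes of a gene gave different values. The first pair belongs to TRAF6, the next to CD40 and NFKBIA, and the last 3 to NFKB1, where capitals mark the 54 bases that a pair of probes share. Each of them had a reading frame, on the strand shown, with 0 stop codons.
TRAF6 A_72_P223847: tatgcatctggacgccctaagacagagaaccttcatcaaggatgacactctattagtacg
TRAF6 O8523: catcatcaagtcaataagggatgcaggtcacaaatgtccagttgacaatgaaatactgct
CD40 A_72_P544217: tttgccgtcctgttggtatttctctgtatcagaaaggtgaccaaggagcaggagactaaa
NFKBIA A_72_P165846: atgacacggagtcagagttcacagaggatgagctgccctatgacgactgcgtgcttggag
NFKB1 A_72_P146316: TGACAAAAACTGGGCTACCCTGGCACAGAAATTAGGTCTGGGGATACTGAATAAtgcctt
NFKB1 A_72_P278054: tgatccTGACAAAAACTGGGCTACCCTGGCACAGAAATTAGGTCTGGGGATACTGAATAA
NFKB1 O12055: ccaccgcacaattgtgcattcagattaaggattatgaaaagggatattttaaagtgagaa

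Arrays were alike. The share of probes brighter than background by the scanner's own call (well above background) was 65.8% to 77.2%, and the median correlation of an array with the others lay between 0.979 and 0.985. The 6 slides each held 2 arrays of every group, and the 2 scan days 6 of every group. Hepatocyte markers of the list (ALB, APOA1, TTR, TF, SERPINA1, HNF4A) were well above background on all 48 arrays. Nothing in the labels beyond the pig of origin describes the replicates, so P-values measure the spread between these pigs.

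The first question was whether the lines differed. All 4 CD40 probes were under-expressed and 1 of 2 TRAF6 probes was over-expressed in the low RFI line, whereas no probe of the other 5 genes met the cut-offs of P under 0.01 and fold-change (FC) over 1.1. In all, 5 of the 25 member probes were differentially expressed probes (DEP), 1 over-expressed and 4 under-expressed, beside 6.91% of all tested probes (3.42% over-expressed and 3.49% under-expressed). At a P-BH (Benjamini-Hochberg) of 5%, 1 member probe remained, beside 3.93% of all probes. At an unadjusted P under 0.05 there were 14 member probes, beside 14.7% of all, and probes of 1 gene are not independent of each other. The genes were chosen with earlier results of these data known, so these shares are a description and not a test of the set. Low minus high RFI, 20 of the 25 log2 differences were negative and 5 positive, with a median of -0.12, and the median over all tested probes was 0.005.

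**Figure D1:**
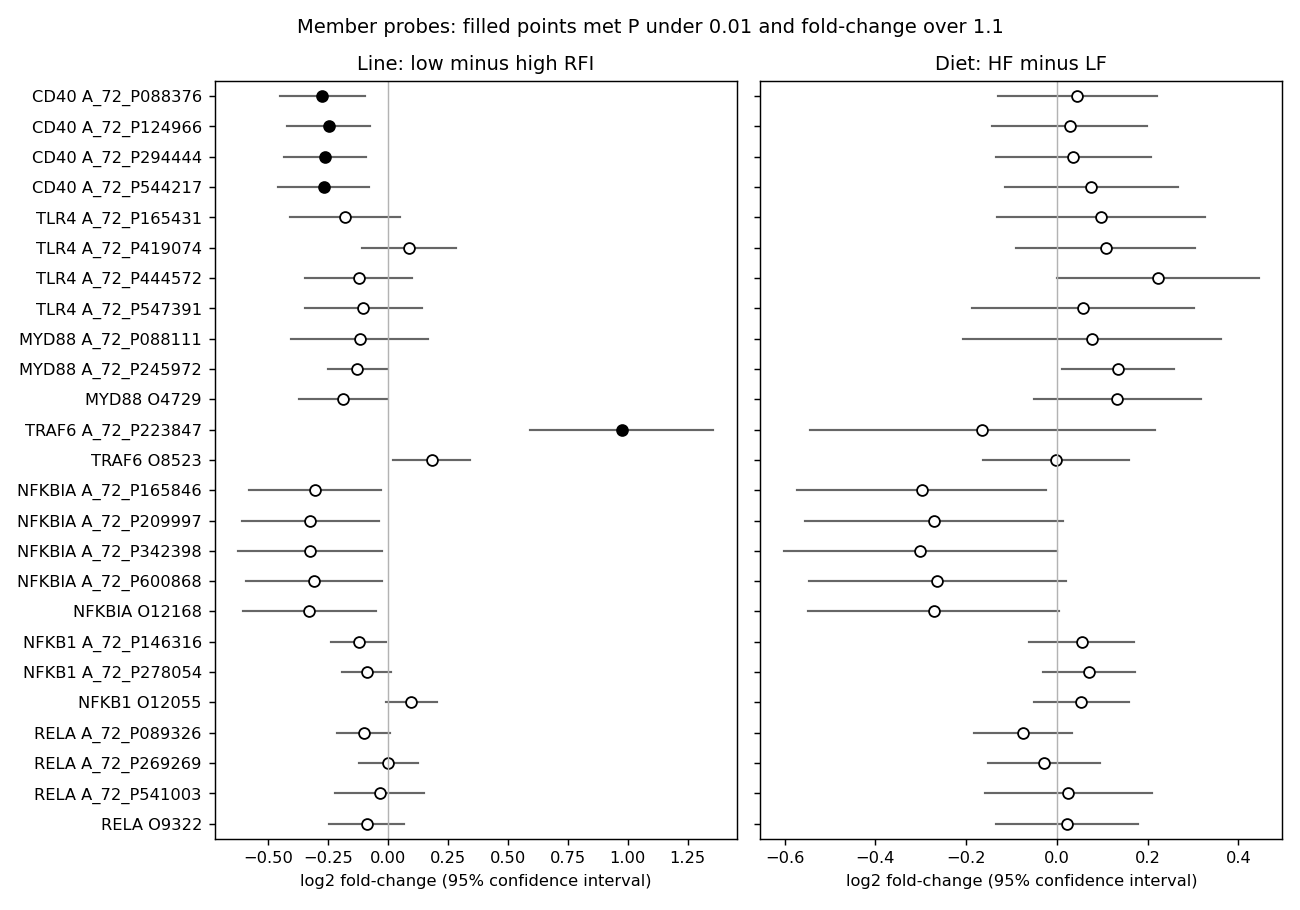
Log2 FC of the 25 tested member probes with 95% confidence intervals, for line (left, low minus high RFI) and diet (right, HF minus LF), on scales of their own. Filled points met P under 0.01 and FC over 1.1: the 4 CD40 probes at -0.25 to -0.27 and 1 of 2 TRAF6 probes at 0.97 for line, and 0 probes for diet.

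All 4 CD40 probes were lower in the low RFI line by a similar amount. For the CD40 probe of highest signal, A_72_P124966, levels ran from 2.41 to 3.54 (median 2.88) in the 24 low RFI pigs and from 2.76 to 3.72 (median 3.14) in the 24 high RFI pigs. The groups overlapped widely, yet 17 of 24 low RFI pigs were below the high RFI median. The mean was 2.92 ± 0.34 (SD) against 3.17 ± 0.25, a log2 difference of -0.25 (SE 0.09, limma P = 0.0056, P-BH = 0.098), or 15.8% lower. The other 3 probes gave -0.27 (A_72_P088376, P-BH = 0.066), -0.26 (A_72_P294444, P-BH = 0.071) and -0.27 (A_72_P544217, P-BH = 0.11). CD40 thus met the cut-offs of P and FC with every probe, and P-BH of 5% with none. On each scan day alone, with 24 pigs, A_72_P124966 gave -0.24 (limma P = 0.065) and -0.25 (P = 0.042), and no CD40 probe met the cut-offs.

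The CD40 probes repeated one another closely. A_72_P124966 and A_72_P294444 share 51 bases, and over the 48 pigs, after removal of the 4 group means, they correlated at r = 0.98. Probe A_72_P544217, whose sequence is printed above, shares no long run of bases with the others and correlated with them at r = 0.86 to 0.87. Pig-to-pig SD within groups was 0.30 for A_72_P124966.

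By diet, the CD40 difference between lines was larger with LF. With LF, A_72_P124966 ran from 2.41 to 3.53 (median 2.81) in the low RFI line and from 2.80 to 3.72 (median 3.22) in the high RFI line. With HF, the corresponding values were 2.58 to 3.54 (median 2.98) and 2.76 to 3.57 (median 3.12). Of 12 low RFI pigs, 10 with LF and 7 with HF were below the high RFI median on the same diet. The log2 difference was -0.39 with LF (SE 0.12, limma P = 0.0023, P-BH = 0.13) and -0.11 with HF (SE 0.12, P = 0.38, 95% interval -0.35 to 0.14). Over the 4 probes it was -0.39 to -0.46 with LF and -0.08 to -0.15 with HF. The test of the difference itself, the interaction, did not reach the cut-off for any CD40 probe (limma P = 0.051 to 0.16, every P-BH = 1). With LF, 5 member probes were DEP (4 of CD40 and 1 of TRAF6) beside 3.84% of all probes, and with HF 1 (TRAF6) beside 3.41%. For the interaction the count was 0 of 25, with 0 at an unadjusted P under 0.05, beside 0.376% of all probes at the cut-offs and 2.37% at P under 0.05.

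**Figure D2:**
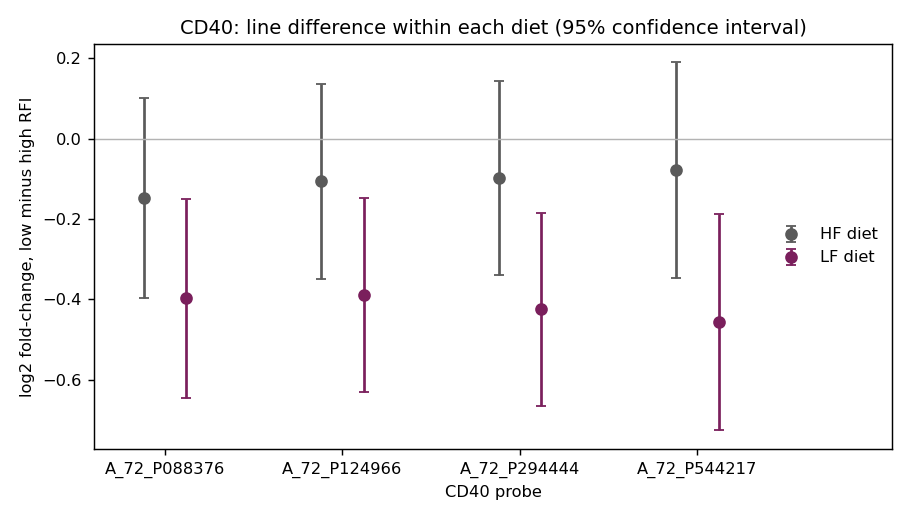
Log2 difference between lines (low minus high RFI) for each of the 4 CD40 probes within HF and within LF, with 95% confidence intervals. With LF, every interval lies below 0 (differences of -0.39 to -0.46), and with HF every interval includes 0, while the interaction test gave P = 0.051 to 0.16.

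TRAF6 was the member with the largest difference in absolute value, and its values in the high RFI line were split. Probe A_72_P223847 ran from 2.002 to 3.05 (median 2.69) in low RFI pigs and from 0.50 to 3.06 (median 1.90) in high RFI pigs. In the high RFI line, 10 pigs lay between 0.50 and 0.94 and the other 14 between 1.79 and 3.06, with no pig in the gap of 0.85 between them. All 24 low RFI pigs were above that gap and above the high RFI median. The mean was 2.62 ± 0.31 (SD) against 1.65 ± 0.89, a log2 difference of 0.97 (SE 0.19, limma P = 5.12e-06, P-BH = 0.00076), a ratio of signals of 1.96. Genotypes were not analysed here, and whether a sequence difference under this probe bears on its values, and so whether the ratio is one of transcript levels, was not tested. The low values occurred with both diets, in 6 of 12 high RFI pigs with HF and in 4 of 12 with LF, and on both scan days, in 5 of 12 high RFI pigs on each. On each scan day alone the difference met the cut-offs, with 0.85 (limma P = 0.0074) and 1.1 (P = 0.00022).

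Within diets, TRAF6 A_72_P223847 differed between lines by 1.16 with HF (limma P-BH = 0.019) and by 0.79 with LF (P = 0.0050, P-BH = 0.19), and the interaction had P = 0.33. The call with LF was lost without 1 high RFI pig on LF, the one with the highest NFKBIA level (0.68, P = 0.014). The second TRAF6 probe, O8523, ran from -2.60 to -1.45 (median -1.97) in low RFI pigs and from -2.61 to -1.67 (median -2.18) in high RFI pigs. Its ranges nearly coincided, with 19 of 24 low RFI pigs above the high RFI median. Its log2 difference was 0.18 (SE 0.08, 95% interval 0.02 to 0.34, limma P = 0.027, P-BH = 0.25). The mean over both probes gave 0.58 (limma P-BH = 0.0017). The 2 TRAF6 probes, which share no long run of bases, correlated at r = 0.66 within the high RFI line and r = 0.31 within the low RFI line.

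**Figure D3:**
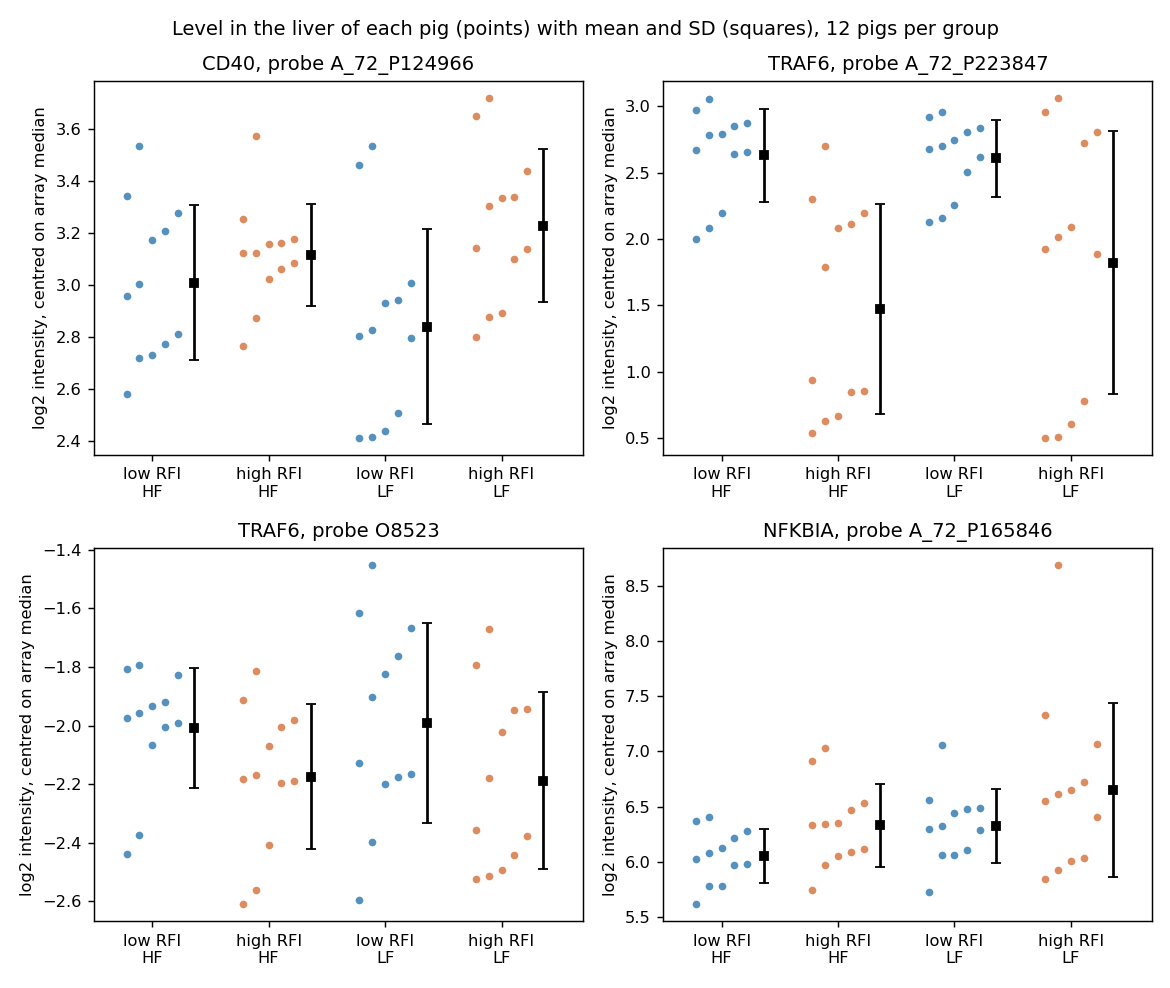
Log2 intensity relative to the array median in each pig (points, 12 per group) with mean and SD (squares) for 1 CD40 probe, both TRAF6 probes and 1 NFKBIA probe, each panel on its own scale. TRAF6 A_72_P223847 leaves the interval from 0.94 to 1.79 empty, with 10 high RFI pigs below it, and 1 high RFI pig on LF stands at 8.69 for NFKBIA.

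TLR4, the lipopolysaccharide receptor, did not meet the cut-offs for line. Its probe of highest signal, A_72_P444572, ran from -0.74 to 0.80 (median 0.24) in low RFI pigs and from -0.41 to 1.19 (median 0.23) in high RFI pigs. The difference was -0.12 (SE 0.11, 95% interval -0.34 to 0.10, limma P = 0.27). The other 3 tested probes gave -0.18 to 0.09. The fifth TLR4 probe, A_72_P444577, was well above background on 4 of 48 arrays and was not tested.

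MYD88, the adaptor, had lower means in the low RFI line on all 3 probes without meeting the cut-offs. A_72_P245972 ran from 3.98 to 4.80 (median 4.40) in low RFI pigs and from 4.04 to 4.90 (median 4.50) in high RFI pigs, and 16 of 24 low RFI pigs were below the high RFI median. Its difference was -0.13 (SE 0.06, limma P = 0.044, P-BH = 0.32). Probe O4729 gave -0.19 (P = 0.048, P-BH = 0.33), and A_72_P088111, well above background on 35 of 48 arrays, gave -0.12 (P = 0.41).

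NFKBIA, the inhibitor, gave values of the same sign on all 5 probes, -0.30 to -0.33, with limma P = 0.021 to 0.035 and P-BH = 0.22 to 0.28, so no probe met the cut-offs. Probe A_72_P165846 ran from 5.61 to 7.06 (median 6.17) in low RFI pigs and from 5.74 to 8.69 (median 6.38) in high RFI pigs, and 18 of 24 low RFI pigs were below the high RFI median. The highest pig, from the high RFI line on LF, was 1.36 above the next of its line and was also highest on the other 4 probes. Without it, the difference of A_72_P165846 was -0.21 (P = 0.051) in place of -0.30 (P = 0.031). The probes A_72_P209997, A_72_P600868 and O12168 have the same sequence, and they correlated at r = 0.993 to 0.996. The SDs of their differences were 0.048 to 0.057. This corresponds to 0.034 to 0.040 per probe, which is the repeatability of 1 probe on an array. Within groups NFKBIA varied by an SD of 0.48 (A_72_P165846), larger than for 86.8% of named genes, each by its probe of highest signal (median SD 0.25).

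NFKB1 and RELA, the subunits, did not meet the cut-offs. For NFKB1, the overlapping probes A_72_P146316 and A_72_P278054, printed above with their shared bases in capitals, gave -0.12 (SE 0.06, limma P = 0.040, P-BH = 0.30) and -0.09 (P = 0.085), and they correlated at r = 0.64. The third probe, O12055, gave 0.10 (95% interval -0.01 to 0.20, P = 0.066) and correlated with them at r = 0.06 and 0.01. The NFKB1 probes therefore gave no common direction.

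For RELA, the probe of highest signal, A_72_P269269, ran from 2.92 to 3.88 (median 3.43) in low RFI pigs and from 3.12 to 3.81 (median 3.43) in high RFI pigs, a difference of 0.002 (95% interval -0.12 to 0.13). The other 3 RELA probes gave -0.10 to -0.03, with limma P = 0.066 to 0.71. These 3 correlated with each other at r = 0.55 to 0.59, and with A_72_P269269 at r = -0.40 to -0.06. Values of RELA thus depend on which probe stands for it.

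The second question was the effect of diet. No member probe met the cut-offs, beside 4.61% of all tested probes, and 4 of 25 had an unadjusted P under 0.05, beside 14.4%. Of these 4, NFKBIA A_72_P165846 was -0.30 (HF minus LF, limma P = 0.034) and A_72_P342398 was -0.30 (P = 0.050), and for the former 4 of 24 HF pigs were above the median of the LF pigs. MYD88 A_72_P245972 was 0.14 (P = 0.032) and TLR4 A_72_P444572 was 0.22 (P = 0.049), with 17 and 21 of 24 HF pigs above the median of the LF pigs. For this TLR4 probe the median was 0.36 with HF and -0.03 with LF, and for this MYD88 probe 4.50 with HF and 4.40 with LF. Over all tested probes of the gene, the diet difference was 0.06 to 0.22 for TLR4 (limma P = 0.049 to 0.64). It was 0.08 to 0.14 for MYD88 (P = 0.032 to 0.59) and -0.30 to -0.26 for NFKBIA (P = 0.034 to 0.067). On the first scan day alone, 2 TLR4 probes and 1 MYD88 probe met the cut-offs for diet, and on the second 0 member probes did. TLR4 A_72_P444572 gave 0.44 (limma P = 0.0020) on the first and 0.01 (P = 0.95) on the second day, and MYD88 A_72_P245972 gave 0.21 (P = 0.037) and 0.06 (P = 0.48). The lowest P-BH among the 25 was 0.30. CD40 differed between diets by 0.03 to 0.08 over its probes, with intervals from -0.14 to 0.27. Without the pig that was highest for NFKBIA, A_72_P165846 gave -0.20 (P = 0.057).

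The other genes of the pathway came from 7 lists, in which 78 of 96 genes were tested. For line, 4 genes were over-expressed and 8 under-expressed on at least 1 probe, so 15.4% met the cut-offs, beside 9.74% of all 11108 named genes. A gene with more probes can be counted more easily, and these shares were not matched for the number of probes per gene. The median log2 FC over the probes of highest signal was -0.05, and 0.006 over all named genes. For diet, 3 of the 78 genes met the cut-offs (3.85%), beside 6.17% of all named genes, and for the interaction 0 did.

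Among partners of CD40 and TNF receptors, 3 of 8 tested genes met the cut-offs for line. TRAF3, an adaptor that binds CD40 and restrains the alternative NF-kappaB route, was under-expressed on 2 of 4 probes. A_72_P200477 ran from -2.48 to -1.11 (median -1.90) in low RFI pigs and from -2.08 to -1.11 (median -1.50) in high RFI pigs, with 22 of 24 low RFI pigs below the high RFI median and a difference of -0.37 (SE 0.08, limma P-BH = 0.0013). The probe of highest signal, A_72_P148336, gave -0.19 (P-BH = 0.024). TRAF5, another CD40 adaptor, was over-expressed by 0.76 (SE 0.18, P-BH = 0.0071) on its single probe, O9919, which was well above background on 37 of 48 arrays. TNFRSF1A, a TNF receptor, met the cut-offs on 1 of 4 probes (0.16, P-BH = 0.093), while its probe of highest signal gave -0.03 (P = 0.49).

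Among Toll-like and IL1 receptors and adaptors, 1 of 22 tested genes met the cut-offs for line. This was TLR5, the receptor for bacterial flagellin. Its single probe ran from -2.66 to -0.98 (median -1.60) in low RFI pigs and from -3.09 to -2.18 (median -2.65) in high RFI pigs. Of 24 low RFI pigs, 23 were above the high RFI median. The difference was 0.97 (SE 0.10, limma P-BH = 7.39e-09), and among the 25 member probes none had a P-BH as low.

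Among the ubiquitin and kinase relay below TRAF6, 3 of 9 genes met the cut-offs. UBE2V1, which pairs with the ubiquitin-conjugating enzyme that works with TRAF6, was over-expressed on both probes (0.17 and 0.17, limma P-BH = 0.0036 and 0.015). SQSTM1 (p62), a scaffold that binds TRAF6, was under-expressed by 0.20 on the log2 scale (log2 FC = -0.20, P-BH = 0.055). IKBKB, the IkappaB kinase beta, met the cut-offs on 1 of 4 probes (-0.40, P-BH = 0.12), which was well above background on 31 of 48 arrays, and its probe of highest signal gave -0.04 (P = 0.46).

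Among other subunits and IkappaB proteins, NFKBIE (IkappaB-epsilon) was -0.24 (limma P-BH = 0.030) and BCL3, an atypical IkappaB protein, -0.33 (P-BH = 0.13), 2 of 7 genes, both under-expressed. In the lists of A20 partners (8 tested) and of the JNK and AP-1 arm (6 tested), 0 genes met the cut-offs.

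Of 18 tested NF-kappaB target genes, 3 were under-expressed and 0 over-expressed in the low RFI line, and 15 of 18 had a negative value on the probe of highest signal. SOD2, the mitochondrial superoxide dismutase, met the cut-offs on 8 of 9 probes. Its probe of highest signal, A_72_P503136, ran from 3.80 to 5.26 (median 4.55) in low RFI pigs and from 4.11 to 5.47 (median 4.99) in high RFI pigs, with 22 of 24 low RFI pigs below the high RFI median and a difference of -0.41 (SE 0.10, limma P-BH = 0.013). IRF1, a transcription factor of the interferon response, was -0.34 (P-BH = 0.078). CCL5, a chemokine, met the cut-offs on 1 of 3 probes (-0.40, P-BH = 0.015), and its probe of highest signal gave -0.13 (P = 0.25). For diet, ICAM1, an adhesion molecule, was 0.23 (HF minus LF, P-BH = 0.15), GADD45B, a stress-response gene, -0.52 (P-BH = 0.18) and CXCL8, a chemokine, -0.18 (P-BH = 0.18).

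**Figure D4:**
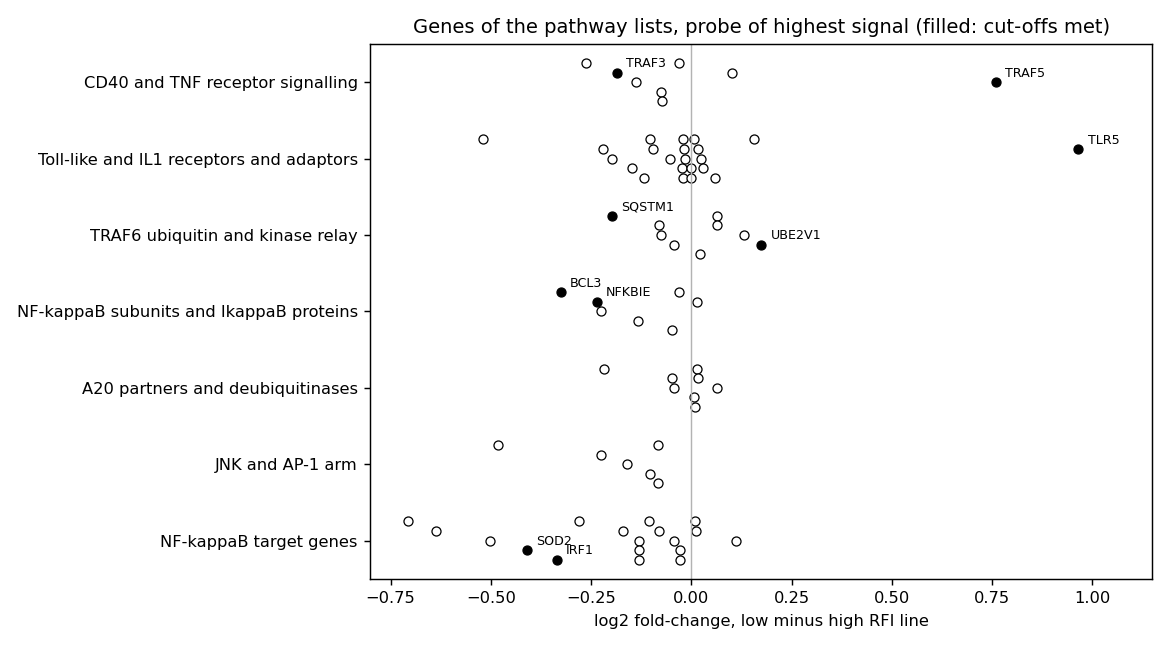
Log2 FC for line (low minus high RFI) of the probe of highest signal of each of 78 tested genes, 1 row of points per list, filled and named where this probe met P under 0.01 and FC over 1.1. TLR5 (0.97) and TRAF5 (0.76) lie far to the right, and 15 of the 18 target genes lie below 0.

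Since liver tissue is a mixture, fewer cells of a type and less RNA per cell cannot be told apart. Of the Kupffer cell and macrophage markers, 9 of 10 were tested, all well above background on every array. For line, 3 met the cut-offs, beside 9.74% of all named genes, not matched for the number of probes per gene. They did so on probes other than that of highest signal, each lower in the low RFI line: C1QA (-0.28, limma P-BH = 0.051), VSIG4 (-0.24 on each of 2 probes, P-BH = 0.059 and 0.12) and AIF1 (-0.22, P-BH = 0.11). On the probes of highest signal, 8 of the 9 markers had a negative line value and 1 a positive one, with a median of -0.18. The log2 levels of these 9 markers summed to between 29.3 and 38.9 (median 33.7) in low RFI pigs and to between 31.04 and 39.5 (median 34.6) in high RFI pigs. With LF, the medians were 33.3 in the low and 34.5 in the high RFI line, and with HF 34.7 and 34.6.

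Of the B cell markers, 5 of 8 were tested and 0 met the cut-offs. Their sum ran from -6.75 to -1.72 (median -4.41) in low RFI pigs and from -5.99 to -1.66 (median -3.80) in high RFI pigs. With LF, the medians were -4.80 in the low and -3.10 in the high RFI line, and with HF -4.02 and -4.23. Of 10 tested T and NK cell markers, CD247, a chain of the T cell receptor complex, was lower in the low RFI line on all 3 probes, its probe of highest signal giving -0.28 (limma P-BH = 0.12), and the others did not meet the cut-offs. The sum for these cells ran from -0.22 to 11.5 (median 5.75) in low RFI pigs and from 0.61 to 10.5 (median 5.88) in high RFI pigs. With LF, the medians were 3.73 in the low and 5.48 in the high RFI line, and with HF 6.68 and 6.08. With LF, the Kupffer cell, B cell and T and NK cell sums thus had lower medians in the low RFI line. So did the neutrophil (-1.25 against -1.18) and cholangiocyte sums (-3.16 against -2.64). The dendritic cell (-1.32 against -1.38), hepatocyte (54.34 against 54.05), endothelial (5.88 against 4.33) and stellate cell sums (15.2 against 14.1) had higher medians in the low RFI line with LF. In the other lists, for line, 1 of 6 hepatocyte markers (APOA1, 0.15), 1 of 6 stellate cell markers (RGS5, 0.87) and 2 of 5 cholangiocyte markers (KRT7, -0.35, and EPCAM on 1 of 18 probes, -0.34) met the cut-offs. None of 2 dendritic cell, 4 neutrophil or 7 endothelial markers did. The part of cell mixture in the CD40, SOD2 and NFKBIA values was not tested.

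Members were also set against these marker sums from pig to pig, after removal of the 4 group means, with 2-sided permutation tests within groups (100000 resamples) and Benjamini-Hochberg adjustment over 63 relations, a comparison chosen after the data were seen, of which 14 had an adjusted P under 0.05. TLR4 rose with the Kupffer cell and macrophage sum (r = 0.80, rho = 0.81, P = 1e-05 each, the smallest these resamples can give, adjusted P = 0.00063). The relation held within the low (r = 0.77) and the high RFI line (r = 0.84), on each scan day (0.85 and 0.79) and without the 2 most distant pigs (0.77). MYD88 did so as well (r = 0.61, permutation P = 3e-05, adjusted P = 0.00095, and rho = 0.56, P = 0.00012, with r = 0.63 without the 2 most distant pigs, 0.60 and 0.62 within lines, 0.57 and 0.67 within scan days). TLR4 also rose with the T and NK cell (r = 0.48) and endothelial sums (0.46). With the Kupffer cell and macrophage sum, NFKB1 gave r = 0.37 and RELA A_72_P269269 -0.52. With the hepatocyte sum, TLR4 gave r = -0.42, MYD88 -0.43, NFKB1 -0.45 and RELA A_72_P269269 0.43. Each of these had an adjusted permutation P under 0.05. Whether cell mixture bears on the relations between members was not tested.

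CD40 followed the T and NK cell sum over the 48 pigs (r = 0.51, permutation P = 0.00086, adjusted P = 0.0090, rho = 0.45, P = 0.0035), but within lines r was 0.83 in the low and -0.06 in the high RFI line, and the difference between lines was not tested. Within scan days r was 0.66 and 0.35, and without the 2 most distant pigs 0.36. With the B cell sum CD40 gave r = 0.43 (permutation P = 0.0048, adjusted P = 0.023, rho = 0.47, P = 0.0018), with 0.50 and 0.31 within lines, 0.49 and 0.35 within scan days and 0.42 without the 2 most distant pigs. With the Kupffer cell and macrophage sum it gave r = 0.35 (permutation P = 0.018, adjusted P = 0.073, rho = 0.42, P = 0.0041, adjusted P = 0.020), 0.63 in the low and -0.002 in the high RFI line, 0.63 and 0.13 within scan days and 0.27 without the 2 most distant pigs. With the sum of the 2 dendritic cell markers it gave r = 0.51 (permutation P = 0.00072, adjusted P = 0.0090, rho = 0.41, P = 0.0065), 0.61 and 0.28 within lines, 0.69 and 0.37 within scan days and 0.45 without the 2 most distant pigs. The median line difference of these 2 markers was 0.09, opposite in sign to that of CD40. For the Kupffer cell and macrophage (-0.18), B cell (-0.18) and T and NK cell markers (-0.09) it had the sign of CD40. With the hepatocyte sum CD40 gave r = -0.43 (permutation P = 0.0015, adjusted P = 0.0105, rho = -0.47, P = 0.00078), -0.52 and -0.36 within lines, -0.48 and -0.38 within scan days and -0.43 without the 2 most distant pigs.

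**Figure D5:**
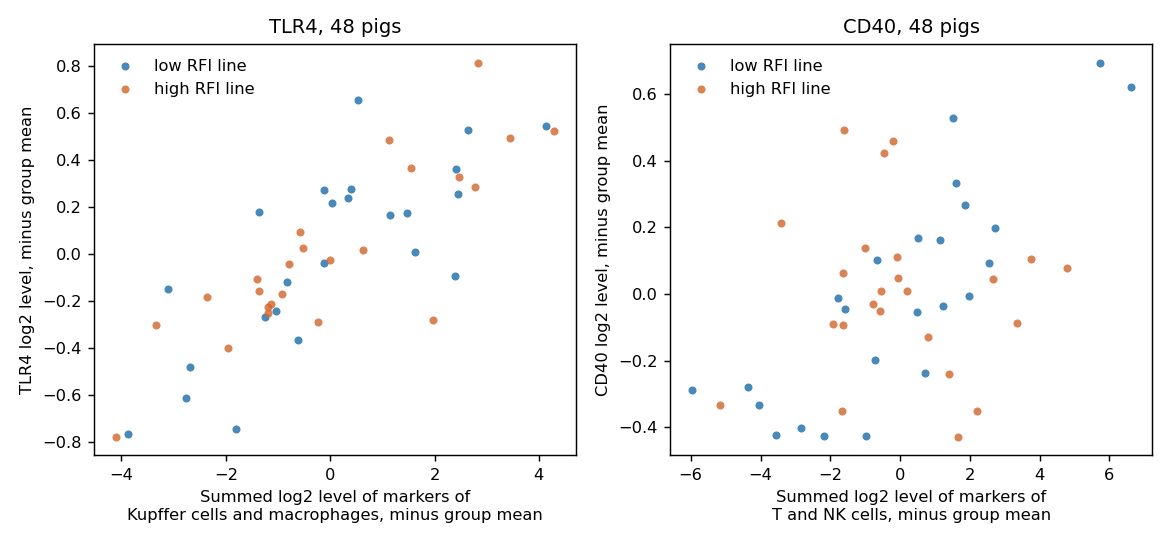
TLR4 (left) against the summed log2 level of 9 Kupffer cell and macrophage markers, and CD40 (right) against that of 10 T and NK cell markers, in 48 pigs after removal of the group means, coloured by line. TLR4 rises with its markers in both lines (r = 0.77 in the low and 0.84 in the high RFI line), and for CD40 r is 0.83 in the low and -0.06 in the high RFI line (difference not tested).

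Among themselves, 21 pairs of the 7 members were compared by their probes of highest signal in the same way. By Pearson's r, 6 pairs passed an adjusted P of 0.05, which were the pairs among TLR4, MYD88, NFKB1 and RELA. By Spearman's rho there were 8, with CD40 and NFKB1 (rho = 0.37, permutation P = 0.012, adjusted P = 0.035, r = 0.35 with adjusted P = 0.060) and CD40 and TLR4 (rho = 0.39, permutation P = 0.011, adjusted P = 0.035, r = 0.31 with adjusted P = 0.077) in addition. Within lines r was 0.40 and 0.24 for the former and 0.49 and 0.05 for the latter, within scan days 0.42 and 0.26, and 0.56 and 0.16, and without the 2 most distant pigs 0.41 and 0.29. TLR4 and MYD88 rose together (r = 0.45, permutation P = 0.00175, adjusted P = 0.0092, rho = 0.44, P = 0.0029), with r = 0.34 and 0.56 within lines, 0.36 and 0.56 within scan days and 0.40 without the 2 most distant pigs. All 12 combinations of a TLR4 and a MYD88 probe gave a positive r, from 0.21 to 0.67. NFKB1 rose with TLR4 (r = 0.53, permutation P = 1e-04, adjusted P = 0.00105, rho = 0.52, P = 0.00017), with 0.57 and 0.48 within lines, 0.72 and 0.43 within scan days and 0.50 without the 2 most distant pigs, but its probe combinations with TLR4 ran from -0.38 to 0.53.

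NFKB1 rose with MYD88 as well (r = 0.35, permutation P = 0.012, adjusted P = 0.041, rho = 0.34, P = 0.016), with 0.21 and 0.54 within lines, 0.38 and 0.30 within scan days and 0.34 without the 2 most distant pigs, and its probe combinations with MYD88 ran from -0.14 to 0.49. The remaining 3 pairs were negative and all involve RELA A_72_P269269. With TLR4 it gave r = -0.58 (permutation P = 4e-05, adjusted P = 0.00084, rho = -0.62, P = 3e-05), with -0.56 and -0.61 within lines, -0.55 and -0.63 within scan days and -0.55 without the 2 most distant pigs. With MYD88 it gave r = -0.48 (permutation P = 0.00059, adjusted P = 0.0041, rho = -0.51, P = 0.00057), with -0.34 and -0.64 within lines, -0.43 and -0.55 within scan days and -0.53 without the 2 most distant pigs. With NFKB1 it gave r = -0.43 (permutation P = 0.0052, adjusted P = 0.022, rho = -0.38, P = 0.0092), with -0.44 and -0.41 within lines, -0.73 and -0.05 within scan days and -0.41 without the 2 most distant pigs. The sign is that of 1 probe: the other 3 RELA probes correlated with TLR4 A_72_P444572 at 0.31 to 0.57. For TRAF6, whose values fall into separate clusters in the high RFI line, no pooled value is given for its pairs with members. These pairs had r from -0.39 to 0.25 in the low RFI line and from -0.14 to 0.55 in the high RFI line, where r spans the clusters. The highest was that with CD40, 0.55 in the high and -0.12 in the low RFI line, and the difference between lines was not tested.

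Among 11101 other named genes, those most like a member from pig to pig (highest r of probes of highest signal over 48 pigs, group means removed, given as a description) were found for each member. For CD40 they were SLC2A6, of the glucose transporter family (r = 0.82), and the interferon-induced guanylate-binding proteins GBP1 (0.79) and GBP4 (0.76). The line differences of these genes were -0.32 (limma P-BH = 0.12), -0.40 (P-BH = 0.23) and -0.42 (P-BH = 0.093), and SLC2A6 and GBP4 met the cut-offs. For TLR4 they were GYG1 (0.81), FAM105A (0.81) and FYN, a tyrosine kinase (0.80), and for MYD88 JPT1 (0.80), CCDC12 (0.75) and VASP, an actin regulator (0.74).

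For NFKBIA they were GADD45B (0.75), BIRC3, an inhibitor of apoptosis (0.74), and the gene the array names BX919942.2 (0.67). Without the high RFI pig of highest NFKBIA level these were 0.72, 0.62 and 0.55. For NFKB1 they were SMPD1 (0.65), RHBDD1 (0.63) and TAOK1 (0.63), and for RELA C2ORF54 (0.81), MYO1G (0.80) and SLC22A4 (0.79). For TRAF6, the values were lower and rested on the split high RFI line: TGS1 (0.61 in all, 0.70 in the high and 0.35 in the low RFI line), BRD2 (0.59, 0.71 and 0.38) and COL4A3BP (0.53, 0.57 and 0.40).

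Position on the chromosome was taken from the gene order of the assembly Sscrofa11.1, with 10 tested genes on either side of each member. The 8 members lie on chromosomes 1 (TNFAIP3 and TLR4), 2 (RELA and TRAF6), 7 (NFKBIA), 8 (NFKB1), 13 (MYD88) and 17 (CD40). Of 160 neighbours, 20 (12.5%) had a DEP for line, beside 9.74% of all named genes. CD40 had 5 such neighbours of 20, of which NEURL2 (0.16, limma P-BH = 0.014), CTSA (0.33, P-BH = 0.0019), PCIF1 (0.56) and ZNF335 (0.37, P-BH = 0.026) were over-expressed in the low RFI line, opposite to CD40, and NCOA3 (-0.29, P-BH = 0.081) was under-expressed. TRAF6 had 2 such neighbours of 20 (10%), a share near that of all named genes. These were ALKBH3 (0.27, limma P-BH = 0.027) and APIP (0.25, P-BH = 0.033), both over-expressed in the low RFI line. Both TRAF6 probes had this sign, and 1 of them met the cut-offs.

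TLR4 had 4 such neighbours of 20: ATP6V1G1 (-0.28, limma P-BH = 0.0012), TNC (0.51, P-BH = 0.045), C5 (-0.20, P-BH = 0.13) and GSN (0.32, P-BH = 0.12). NFKB1 had PPA2 (-0.24), SLC39A8 (0.32) and PPP3CA (0.20 on the best of 3 called probes, P-BH = 0.0039). NFKBIA had FAM177A1 (-0.50) and CFL2 (-0.26), RELA had DRAP1 (-0.38) and CCDC85B (0.18), and MYD88 had none. Beside the place of TNFAIP3, which was not analysed here, HEBP2 (-0.65, P-BH = 0.0013) and IFNGR1, a chain of the interferon-gamma receptor (-0.24, P-BH = 0.042), were under-expressed.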

How the data were processed

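Liver RNA of 48 pigs was labelled with Cy3 and hybridized to 1 array each. The authors deposited the scanner output (Agilent Feature Extraction), in which the background-subtracted intensity of each spot was used here, and a table of log2 values of 37378 probes, made in R 2.10.0 by median centring, used as an alternative. Tested on the files, its columns differ from the log2 median intensity by a constant (largest SD 2.24e-07).

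Control spots were left out, and 483 outlier spots were set to missing. Log2 intensities were centred on the array median over the probes kept, those well above background on 12 or more arrays. Symbols came from accessions in Sscrofa11.1 or from the scanner output. Line, diet and their interaction were fitted to all 45236 probes with limma 3.58.1 in R 4.3.3, checked on simulated data, with P-BH over all probes. Probes were called (DEP) at P under 0.01 and FC over 1.1. The number of arrays limits the precision.

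Named are all members, pathway-list genes that met the cut-offs for line or diet (at most 4 per list by P), the 3 genes most like each member, neighbours that met the cut-offs for line, and, beyond this rule, markers that met the cut-offs. The members and lists were chosen with earlier results of these data known.

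Alternatives were an ANOVA, other centring, background, filter and probe choices, slide and scan day as blocks, and each scan day alone.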

Additional observations from a re-analysis of the deposited data

How the results depend on the processing

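No paired analysis was possible because the labels give the groups no shared replicate numbers. Over 15 other settings and the mean over the probes of a gene, 269 line and diet values of members were recomputed: 253 kept their direction and their side of the cut-offs, 8 lost the cut-offs (the 4 CD40 line values on each scan day alone), 1 gained them (TLR4 A_72_P444572 for diet on the first scan day, 0.44) and 7 changed sign. None of the 7 met the cut-offs: for line, RELA A_72_P269269 was -0.0461 on the second scan day and -0.0558 as a mean of its probes, and TLR4 A_72_P444572 was 0.00932 on the second scan day. For diet, RELA A_72_P269269 was 0.0063 with normexp and 0.0240 on the second scan day, CD40 A_72_P124966 was -0.10 and NFKB1 A_72_P278054 -0.00631 on that day.

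Each scan day alone, with 24 pigs, gave 1 member DEP for line in place of 5, TRAF6 A_72_P223847 (0.85 and 1.1). CD40 A_72_P124966 was -0.24 (limma P = 0.065) and -0.25 (P = 0.042) on these days. The first day gave 3 DEP for diet (2 of TLR4 and 1 of MYD88, P-BH of 0.45 to 0.54) in place of 0 (the second day gave 0, with TLR4 A_72_P444572 at 0.01), 0 for line within HF in place of 1 and 0 within LF in place of 5, and the second gave 1 within LF. Without the high RFI pig of highest NFKBIA level, an alternative added after the data were seen, there were 4 within LF. Correlated pairs at an adjusted P of 0.05 numbered 2 in the low RFI line in place of 6. With 5 neighbours on each side, 13 of 80 had a DEP in place of 20 of 160. A scan day or a line alone holds 24 pigs, and the cause of these changes was not tested. Dim probes limit TLR4 A_72_P444577 and MYD88 A_72_P088111.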
